A study of Mus musculus with 4 samples.

Results

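The 9 genes described here encode the coagulation and fibrinolysis proteins that blood vessel endothelium makes or carries: Vwf, Procr, F3, F8, Tfpi, Tfpi2, Plat, Plau and Plaur. They were taken by name from a table of 55367 gene names, in which all 9 were found, and all 9 passed the filter on low counts that kept 16945 genes. RNA was measured in endothelial cells sorted as CD31-positive and CD45-negative from subcutaneous tumours that KPC cells, a mouse pancreatic cancer line, had formed in C57BL/6 mice. The anti-CD93 group had received an anti-CD93 antibody, directed at a receptor on the endothelial surface, 48 hours before cell isolation, and the control IgG group had received control rat IgG at the same time. Both groups carried the same tumour line in the same strain, and each had 2 libraries. Whether the libraries of a group came from separate mice or from pools is not given, so p-values rest on the spread between libraries, which may be technical.

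Endothelium keeps blood fluid and seals a damaged vessel through a small set of proteins. Tissue factor, the product of F3, starts coagulation when it meets plasma factor VII, and tissue factor pathway inhibitor (Tfpi) blocks that step. The endothelial protein C receptor (Procr) holds protein C for activation by thrombin bound to thrombomodulin, which damps coagulation. Von Willebrand factor (Vwf) tethers platelets and carries factor VIII (F8) in plasma. Clots are dissolved by plasmin, which tissue-type and urokinase-type plasminogen activators (Plat and Plau) release from plasminogen, and urokinase acts at the cell surface on its receptor (Plaur).

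The libraries held 9364294 to 17813993 assigned reads. Control IgG replicate 2 stood apart: it had the fewest reads and the most detected genes (27718, against 23796 to 25430 in the other libraries), and its log2 CPM values correlated across genes at r = 0.945 to 0.947 with the rest, while the other libraries reached 0.978 to 0.983. Genes are not independent replicates. It held the highest or lowest value of the 4 libraries for 4 of the 9 genes, against 76.7% of all genes tested. Each log2 fold change below is therefore also given without that library, and ratios are given for each library. The sort markers were as labelled, Pecam1 (CD31) high and Ptprc (CD45) low. Pecam1 was at 1661 and 1663 CPM in anti-CD93 and 1685 and 1872 CPM in control IgG. Ptprc was at 5.08 and 2.32 CPM in anti-CD93 and 2.37 and 4.71 CPM in control IgG. Markers of other cell types, tumour epithelium among them, were also present and are given below. CPM is reads per 1000000 reads assigned to tested genes, after TMM scaling.

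None of the 9 genes differed between the groups past the test. F3 lay higher and Procr lower in both anti-CD93 libraries than in both control libraries, and these were the largest differences of the set, with log2 fold changes of 0.66 and -0.71 (anti-CD93 over control IgG). Of the 9 genes, 0 had an adjusted p under 0.05 by edgeR's quasi-likelihood test, and DESeq2 and limma-voom also called 0. Over all genes tested edgeR and limma-voom called 0%, and DESeq2 called 0.015% of all genes with reads and 0.0236% of the filtered genes. At an unadjusted p under 0.05 edgeR had 2 of the 9 genes against 4.49% of all genes tested, with F3 on the higher side (1.99% of all) and Procr on the lower side (2.5% of all). The groups did not overlap in 4 of the 9 genes, against 39.8% of all genes tested. F3 and Tfpi2 were higher in both anti-CD93 libraries (20.1% of all) and Procr and Plau lower in both (19.7% of all). The median log2 fold change was -0.011 over the 9 genes and -0.0092 over all genes tested.

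**Figure D1:**
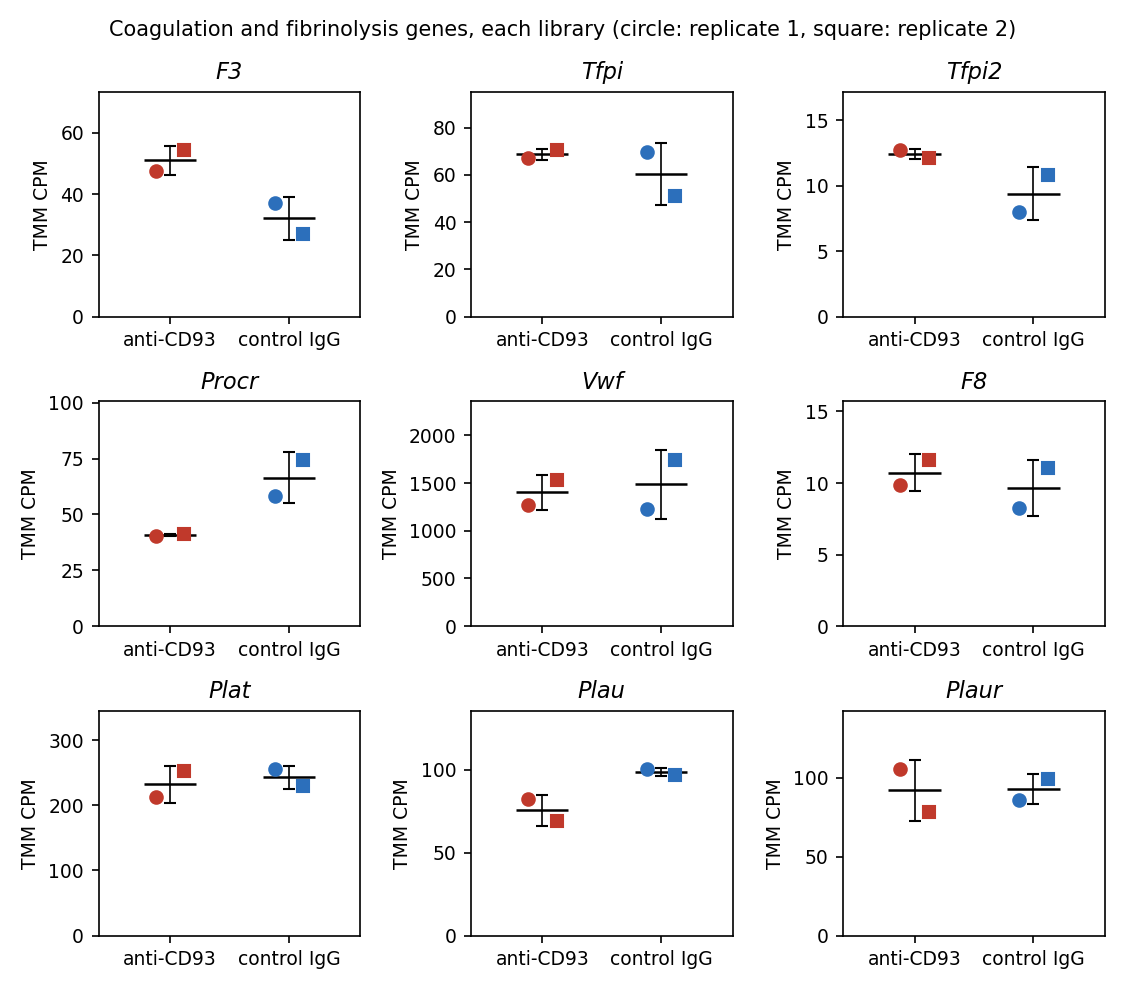
TMM-scaled CPM (vertical axis, starting at 0) of each of the 9 genes in the 2 anti-CD93 libraries (red) and the 2 control IgG libraries (blue); horizontal lines are group means and bars are SD (n = 2). F3 and Tfpi2 sit higher and Procr and Plau lower in both anti-CD93 libraries than in both control libraries, while the groups overlap for the other 5 genes.

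Levels of the genes are compared as TPM, which divides reads by gene length. The length is that of all annotated exons of a gene together, so a gene with many alternative exons reads low. Vwf was the highest, at 279.9 ± 43.1 TPM in anti-CD93 and 299.6 ± 79.7 TPM in control IgG (SD, n = 2 here and below), and only 1.91% of the genes tested had a mean TPM at least as high. In anti-CD93, Plat at 119 ± 16.8 TPM, Plaur at 112 ± 21.0 TPM and Plau at 102 ± 10.6 TPM followed. In control IgG the same genes were at 125 ± 6.21 TPM for Plat, 114 ± 14.2 TPM for Plaur and 134 ± 0.119 TPM for Plau. The order of these 3 was not the same in both anti-CD93 libraries, with Plaur the highest in replicate 1 and Plat in replicate 2.

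F3 and Procr stood side by side in anti-CD93 and apart in control IgG. F3 was at 64.6 ± 7.27 TPM in anti-CD93 and 40.8 ± 8.01 TPM in control IgG, and Procr was at 64.2 ± 2.10 TPM in anti-CD93 and 106 ± 20.6 TPM in control IgG. Below them came Tfpi, at 40.3 ± 2.23 TPM in anti-CD93 and 35.5 ± 6.94 TPM in control IgG. F3 was above Tfpi in every library. Tfpi2 was at 22.8 ± 0.286 TPM in anti-CD93 and 17.4 ± 4.09 TPM in control IgG. F8 was the lowest, at 3.47 ± 0.481 TPM in anti-CD93 and 3.14 ± 0.715 TPM in control IgG.

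**Figure D2:**
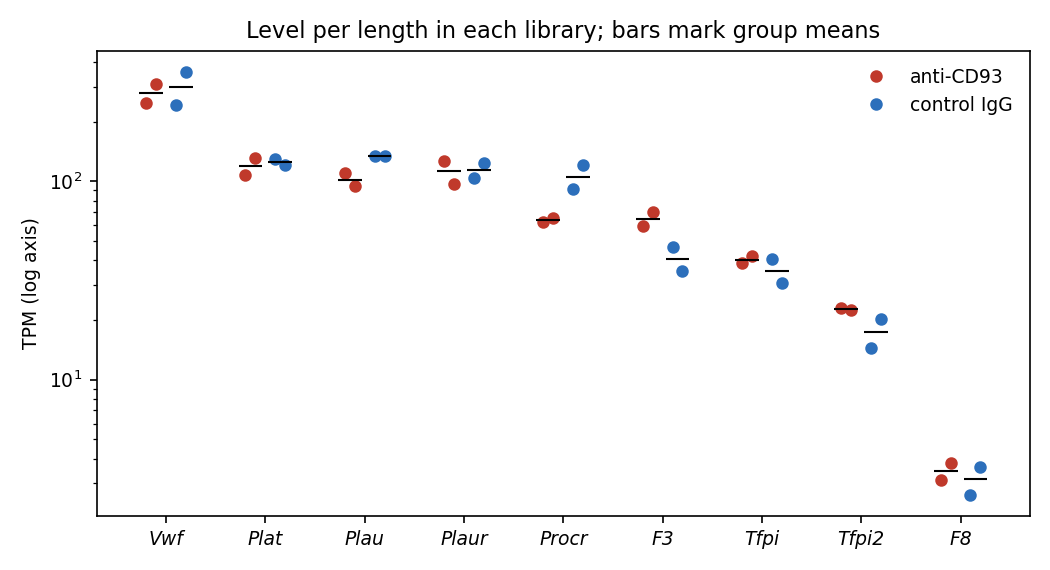
TPM on a log axis for each gene and library, ordered by mean level, with anti-CD93 in red to the left of control IgG in blue and short lines at the group means. Vwf lies near 300 TPM, Plat, Plau and Plaur near 100 TPM, and F8 near 3 TPM.

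The promoters of F3 and Procr, the genes with the largest differences, are shown with that of Plaur, whose groups overlapped and whose log2 fold change was the smallest of the 9. They are from RefSeq on GRCm38.p6, plus strand, and stop before the gene starts in the deposited annotation: chr3:121723287-121723536 for F3, chr2:155750967-155751116 for Procr and chr7:24462233-24462482 for Plaur. Capitals mark the AP-1 motif TGANTCA and the GC box GGGCGG, on either strand.
F3: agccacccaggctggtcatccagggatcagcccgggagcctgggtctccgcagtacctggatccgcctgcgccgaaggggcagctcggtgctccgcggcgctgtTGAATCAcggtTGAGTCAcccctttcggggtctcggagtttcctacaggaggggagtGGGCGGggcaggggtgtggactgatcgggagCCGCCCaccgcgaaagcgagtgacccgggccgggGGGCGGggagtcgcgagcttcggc
Procr: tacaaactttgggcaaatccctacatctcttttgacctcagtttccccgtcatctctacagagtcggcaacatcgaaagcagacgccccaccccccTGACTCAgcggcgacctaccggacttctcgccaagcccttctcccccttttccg
Plaur: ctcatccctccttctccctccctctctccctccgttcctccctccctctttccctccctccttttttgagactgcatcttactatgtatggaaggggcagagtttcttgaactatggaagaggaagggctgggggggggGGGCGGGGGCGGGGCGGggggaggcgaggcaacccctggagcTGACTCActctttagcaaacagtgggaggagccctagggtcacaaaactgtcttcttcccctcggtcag
The AP-1 motif is bound by Fos and Jun proteins, and the GC box by Sp1 and its relatives.

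In the 250 bases upstream of the RefSeq start, F3 had 2 AP-1 matches, beginning 146 and 135 bases upstream, Procr had 1 at 154 bases and Plaur had 1 at 69 bases. The GC box matched 3 times in F3 and 3 times in Plaur, where the matches at 105 and 100 bases overlap, and had no match in Procr. RefSeq promoters were found for 6 of the 9 genes, the others being Vwf, Plat and Plau. These 6 have 9 starts in the table, 2 of Tfpi, 3 of Tfpi2 and 1 of each other gene. An AP-1 match was present at 4 of the 9 starts, those of F3, Procr and Plaur and 1 of Tfpi2, against 6.75% of the 32851 promoters of the table. A GC box was present at 5 of the 9, those of F3 and Plaur, both of Tfpi and 1 of Tfpi2, against 32.7%. The motif GCGNGGGCG, bound by EGR factors, matched at 2 of the 9 starts, that of Plaur and 1 of Tfpi2, overlapping GC boxes in both, against 4.7% of promoters. The hypoxia-inducible factor cores ACGTG and GCGTG matched at 1 of the 9 starts each, the same start of Tfpi2, against 16.6% and 28.2% of promoters. A match describes the letters and is not a measured binding site.

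Among the genes that start coagulation, F3 (chromosome 3, 121723537 to 121735048, plus strand, GRCm38, as for all coordinates of genes here) was higher with anti-CD93 in every pairing of libraries but did not pass the test. It was at 47.6 and 54.3 CPM in anti-CD93 replicates 1 and 2, against 37.0 and 27.1 CPM in control IgG replicates 1 and 2. The groups did not overlap, and control IgG replicate 2 was the lowest. The log2 fold change was 0.66 (SE 0.22, 95% interval 0.15 to 1.18, adjusted p = 0.812 by edgeR). Leaving out control IgG replicate 2 gave 0.46 (adjusted p = 0.449), and leaving out control IgG replicate 1 gave 0.91 (adjusted p = 0.00220). In bulk RNA of this kind, fewer cells of a type and less RNA per cell cannot be told apart.

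Tfpi (chromosome 2, 84432855 to 84476775, minus strand), the inhibitor of the tissue factor step, was at 67.0 and 70.4 CPM in anti-CD93, against 69.6 and 51.0 CPM in control IgG. The 2 anti-CD93 libraries and control IgG replicate 1 lay together, and control IgG replicate 2 alone was lower. This gave a log2 fold change of 0.19 (SE 0.21, 95% interval -0.29 to 0.67, adjusted p = 0.849 by edgeR). The value was -0.020 (adjusted p = 0.974) when control IgG replicate 2 was left out and 0.43 (adjusted p = 0.0254) when control IgG replicate 1 was, so its direction and its call rested on which control library entered.

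Tfpi2 (chromosome 6, 3962595 to 3988919, minus strand) encodes a related Kunitz-type inhibitor that acts on plasmin and other serine proteases. It had 225 and 167 reads (12.7 and 12.1 CPM) in anti-CD93, against 98 and 101 reads (7.99 and 10.8 CPM) in control IgG. Both anti-CD93 libraries were higher than both control libraries, and control IgG replicate 1 was the lowest. The log2 fold change came to 0.41 (SE 0.28, 95% interval -0.24 to 1.05, adjusted p = 0.812 by edgeR). Leaving out control IgG replicate 2 gave 0.64 and leaving out control IgG replicate 1 gave 0.20, and neither passed (adjusted p = 0.579 and 0.571).

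Of the anticoagulant receptors, Procr (chromosome 2, 155751117 to 155755471, plus strand) was lower with anti-CD93 without passing the test. It was at 40.3 and 41.0 CPM in anti-CD93, against 58.3 and 74.5 CPM in control IgG. The anti-CD93 libraries were close to each other, and both control libraries were higher, control IgG replicate 2 most of all. Its log2 fold change was -0.71 (SE 0.20, 95% interval -1.17 to -0.24, adjusted p = 0.812 by edgeR). When control IgG replicate 2 was left out it was -0.52 (adjusted p = 0.261), when control IgG replicate 1 was left out it was -0.87 (adjusted p = 9.18e-04), and without anti-CD93 replicates 1 and 2 in turn it was -0.68 and -0.72.

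Thrombomodulin (Thbd), which presents thrombin to the protein C held by Procr, overlapped between the groups. It was at 154 and 172 CPM in anti-CD93, against 177 and 162 CPM in control IgG, with a log2 fold change of -0.055 (SE 0.17, adjusted p = 0.947 by edgeR), which was -0.12 without control IgG replicate 2 and 0.0094 without control IgG replicate 1. The ratio of Procr to Thbd, both as TPM, was 0.479 and 0.437 in anti-CD93, against 0.604 and 0.842 in control IgG. The groups did not overlap in this ratio, which was so for 36.6% of tested genes set over Thbd.

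Von Willebrand factor and factor VIII showed no separation of the groups. Vwf (chromosome 6, 125546774 to 125686679, plus strand) was at 1269.7 and 1535 CPM in anti-CD93, against 1232 and 1745 CPM in control IgG. Both the highest and the lowest value were in the control group, and Vwf alone held 66.4% to 74.4% of the reads of the 9 genes. For Vwf the log2 fold change was -0.086 (SE 0.22, 95% interval -0.58 to 0.41, adjusted p = 0.934 by edgeR). With control IgG replicate 2 left out the sign turned (0.19, adjusted p = 0.754), and with control IgG replicate 1 left out the value was -0.32 (adjusted p = 0.0789).

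F8 (chromosome X, 75172715 to 75382615, minus strand) had few reads, 174 and 160 in anti-CD93 and 101 and 103 in control IgG. These are 9.83 and 11.6 CPM in anti-CD93, against 8.24 and 11.03 CPM in control IgG, and the groups overlapped. The fold change on the log2 scale was 0.16 (SE 0.29, 95% interval -0.51 to 0.82, adjusted p = 0.906 by edgeR). Leaving out control IgG replicate 2 gave 0.38 (adjusted p = 0.775), and leaving out control IgG replicate 1 gave -0.043 (adjusted p = 0.919). Within each group replicate 2 was the higher library for both Vwf and F8, as it was for Procr.

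Among the plasminogen activators, Plat (chromosome 8, 22757727 to 22782844, plus strand) was at 212 and 252 CPM in anti-CD93, against 255 and 230.2 CPM in control IgG. The groups overlapped, with anti-CD93 replicate 1 the lowest and control IgG replicate 1 the highest. The log2 fold change was -0.065 (SE 0.18, 95% interval -0.48 to 0.35, adjusted p = 0.941 by edgeR). It became -0.14 (adjusted p = 0.802) when control IgG replicate 2 was left out and 0.011 (adjusted p = 0.954) when control IgG replicate 1 was.

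Plau (chromosome 14, 20836660 to 20843385, plus strand) was lower with anti-CD93 and did not pass the test. It was at 82.1 and 68.8 CPM in anti-CD93, against 100.2 and 96.8 CPM in control IgG. The groups did not overlap, and the control libraries differed from each other less than the anti-CD93 libraries did. Its log2 fold change was -0.38 (SE 0.18, 95% interval -0.80 to 0.034, adjusted p = 0.812 by edgeR). Leaving out control IgG replicate 2 gave -0.41 (adjusted p = 0.442) and leaving out control IgG replicate 1 gave -0.36 (adjusted p = 0.0609), so the value moved little with either control library. Without anti-CD93 replicates 1 and 2 in turn it was -0.51 and -0.26.

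The urokinase receptor gene Plaur (chromosome 7, 24462484 to 24475968, plus strand) was at 105 and 78.4 CPM in anti-CD93, against 86.0 and 99.2 CPM in control IgG. The control libraries lay between the anti-CD93 libraries. The log2 fold change was -0.011 (SE 0.21, 95% interval -0.49 to 0.46, adjusted p = 0.991 by edgeR). Its sign turned to 0.097 when control IgG replicate 2 was left out, and the value was -0.11 when control IgG replicate 1 was (adjusted p = 0.930 and 0.689).

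**Figure D3:**
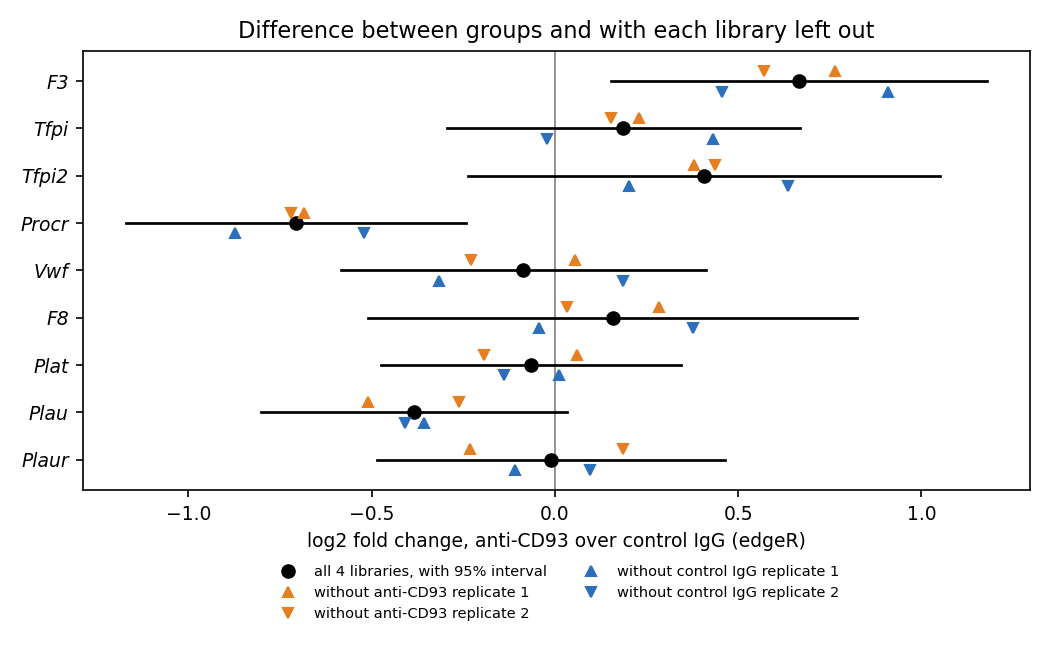
Log2 fold changes (horizontal axis, anti-CD93 over control IgG, edgeR) of the 9 genes with all 4 libraries (black, with 95% interval) and with each library left out (triangles). The values of F3, Tfpi2, Procr and Plau, whose groups do not overlap, keep their side of 0 throughout. Those of Tfpi, Vwf, F8, Plat and Plaur cross it.

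With control IgG replicate 1 left out, so that control IgG was represented by replicate 2 alone, edgeR called 3 of the 9 genes, F3, Tfpi and Procr, against 26.8% of all genes tested. Without control IgG replicate 2 it called 0 of the 9 and 0.0767% of all genes tested. At an unadjusted p under 0.05 there were then 4 of the 9 genes, against 7.86% of all genes tested.

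Ratios within a library do not depend on how libraries are scaled, and 8 are given for pairs of genes. With 2 libraries against 2, an exact permutation test cannot go below p = 0.333 (two-sided), so the ratios are values without a test. F3 over Tfpi, the initiator over its inhibitor, was 1.54 and 1.67 in anti-CD93, against 1.15 and 1.15 in control IgG. The control libraries gave nearly the same ratio although they differed in both genes, and both anti-CD93 libraries were higher. Among tested genes set over Tfpi, 35.6% had no overlap between the groups.

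Urokinase over its receptor, Plau over Plaur, was 0.862 and 0.970 in anti-CD93, against 1.29 and 1.08 in control IgG, with no overlap (23.6% of tested genes over Plaur). Plat over Plau, the tissue-type over the urokinase-type activator, was 0.981 and 1.39 in anti-CD93, against 0.966 and 0.902 in control IgG. Both anti-CD93 libraries were higher, anti-CD93 replicate 1 only just, and 53.9% of tested genes set over Plau had no overlap.

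Vwf over F8 was 79.6 and 81.4 in anti-CD93, against 92.2 and 97.6 in control IgG (35.6% of tested genes over F8 had no overlap). In all, 5 of the 8 ratios had no overlap, and the other 3 overlapped. F3 over Tfpi2 was 2.59 and 3.09 in anti-CD93, against 3.20 and 1.73 in control IgG. Tfpi over Tfpi2 was 1.69 and 1.86 in anti-CD93, against 2.78 and 1.51 in control IgG. Vwf over Pecam1 was 0.296 and 0.358 in anti-CD93, against 0.284 and 0.361 in control IgG.

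**Figure D4:**
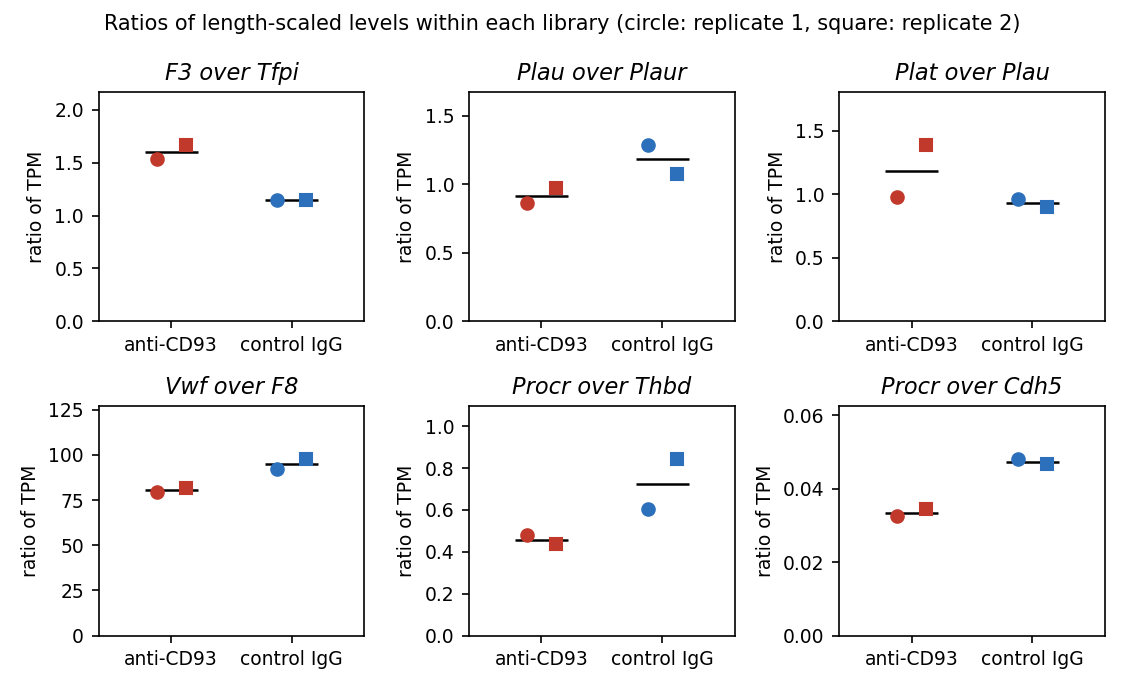
Ratios of TPM within each library (vertical axes, starting at 0) for 5 of the 8 pairs and for Procr over Cdh5, with anti-CD93 (red) left of control IgG (blue), circles for replicate 1, squares for replicate 2 and lines at group means. F3 over Tfpi and Plat over Plau are higher, and the other ratios lower, in both anti-CD93 libraries.

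Other cell types could also add to these genes, since tissue factor, urokinase and its receptor are made by tumour cells, fibroblasts and macrophages, and platelets carry Vwf. Markers of tumour epithelium were present with all 10 of 10 genes and summed to 2414 and 2012 CPM in anti-CD93, against 1691 and 2484 CPM in control IgG. Fibroblast markers (7 of 7 genes) summed to 1767 and 2201 CPM in anti-CD93, against 2108 and 2838 CPM in control IgG. Pericyte and smooth muscle markers (9 of 9) summed to 1037 and 857 CPM in anti-CD93, against 991 and 855 CPM in control IgG. The group sums overlapped for all 3 lists, but some single genes did not overlap.

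Of the 10 tumour epithelial genes, 3 lay higher in both anti-CD93 libraries (20.1% of all genes tested) and 2 lay lower (19.7% of all). Muc1, an epithelial mucin, was at 78.5 and 72.0 CPM in anti-CD93, against 35.2 and 48.1 CPM in control IgG (log2 fold change 0.86, SE 0.21). Epcam, an epithelial adhesion protein, was at 34.1 and 41.1 CPM in anti-CD93, against 21.7 and 23.4 CPM in control IgG (log2 fold change 0.74, SE 0.21). Cdh1 (E-cadherin) was at 351 and 290.03 CPM in anti-CD93, against 216 and 210.4 CPM in control IgG (log2 fold change 0.59, SE 0.18). Cldn7 and Sfn were lower, with log2 fold changes of -1.63 (SE 0.67) and -0.85 (SE 0.40). Cldn7 had few reads, 9 and 8 in anti-CD93 and 22 and 15 in control IgG. Sfn was at 6.55 and 5.96 CPM in anti-CD93, against 7.18 and 15.5 CPM in control IgG. The groups overlapped for Krt8, Krt18, Krt19, Krt7 and Cldn4, with log2 fold changes of 0.013, -0.12, -0.031, 0.18 and -0.47. Krt8, the highest of the 10, was at 855 and 712 CPM in anti-CD93, against 617 and 937 CPM in control IgG. Per length it was at 1280 ± 139 TPM in anti-CD93 and 1283 ± 402 TPM in control IgG. Both means were above those of Pecam1, 855 ± 18.3 TPM in anti-CD93 and 921 ± 90.0 TPM in control IgG. Of the 10, 4 had an unadjusted p under 0.05 by edgeR, against 4.49% of all genes tested. With all 4 libraries none passed the adjusted test by edgeR, with adjusted p = 0.812 for Muc1, Epcam, Cdh1, Cldn7 and Sfn. These 5 are named after their values were seen. Log2 fold changes without control IgG replicate 2 were 1.10 (Muc1), 0.79 (Epcam), 0.57 (Cdh1), -1.71 (Cldn7) and -0.20 (Sfn). Those without control IgG replicate 1 were 0.65 (Muc1), 0.68 (Epcam), 0.61 (Cdh1), -1.55 (Cldn7) and -1.31 (Sfn). Without control IgG replicate 2, Krt8, Krt18, Krt19, Krt7 and Cldn4 were at 0.34, 0.27, 0.37, 0.41 and -0.99. Without control IgG replicate 1 they were at -0.26, -0.43, -0.34, -0.017 and 0.40. Of the 7 fibroblast genes 1 lay above and 1 below in both anti-CD93 libraries. Of the 9 pericyte and smooth muscle genes 1 lay above and 3 below. The shares of all genes tested were again 20.1% above and 19.7% below.

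Blood cell markers were low. Macrophage and leukocyte markers summed to 54.6 and 50.6 CPM in anti-CD93, against 31.2 and 57.5 CPM in control IgG, with 9 of 10 genes in every library and Fcgr1 at 0 in 2 libraries. Platelet and megakaryocyte markers summed to 53.2 and 26.2 CPM in anti-CD93, against 26.6 and 62.6 CPM in control IgG, with 8 of 9 genes in every library and Gp1bb at 0 in all. Neutrophil markers summed to 1.98 and 1.16 CPM in anti-CD93, against 2.94 and 2.997 CPM in control IgG, with 2 of 6 genes in every library. Erythroid markers summed to 29.2 and 19.7 CPM in anti-CD93, against 9.71 and 20.8 CPM in control IgG, with 6 of 7 genes in every library. In both anti-CD93 libraries 2 of the 8 macrophage and leukocyte genes tested lay above and 1 below. For erythroid genes these counts were 2 and 0 of 6, and for platelet genes 0 and 0 of 6. Of the 2 neutrophil genes tested 0 lay above and 1 below. At an unadjusted p under 0.05 by edgeR there were 2 erythroid genes and 1 macrophage gene, against 4.49% of all genes tested. Lymphatic endothelial markers (7 of 7), which are not of blood cells, summed to 606 and 647 CPM in anti-CD93, against 735 and 669 CPM in control IgG. Both anti-CD93 sums were lower. Of the 6 tested, 2 lay below and 0 above in both anti-CD93 libraries (19.7% and 20.1% of all genes tested). Flt4 alone was at 430 and 414 CPM in anti-CD93, against 451 and 479 CPM in control IgG. The part of these cells in the values of the 9 genes was not tested.

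Pan-endothelial markers summed to 8802 and 8960 CPM in anti-CD93, against 9099 and 11116 CPM in control IgG, and 11 of the 12 had a lower mean in anti-CD93. Of the 12, 7 lay below in both anti-CD93 libraries and 0 above, against 19.7% and 20.1% of all genes tested. At an unadjusted p under 0.05 by edgeR there were 2, Cldn5 and Egfl7, against 4.49% of all, and 0 were called. The groups overlapped for Cdh5. Relative to VE-cadherin (Cdh5), an endothelial junction protein, Procr was 0.0326 and 0.0345 in anti-CD93, against 0.0481 and 0.0467 in control IgG, as ratios of TPM. On this scale the control libraries lay close together and both were higher. Tfpi2 over Cdh5 was 0.0119 and 0.0118 in anti-CD93, against 0.00766 and 0.00788 in control IgG. F3 over Cdh5 was 0.0309 and 0.0366 in anti-CD93, against 0.0245 and 0.0136 in control IgG. With F8, also higher, 4 of the 9 genes had no overlap on this scale, against 38.3% of tested genes, of which 27.3% lay above and 11% below. Plau, which was lower in both anti-CD93 libraries as CPM, overlapped here.

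The wider pathway was followed in 4 lists, and none of their genes passed the test (0 of 46 tested by edgeR, DESeq2 or limma-voom, with 3 at an unadjusted p under 0.05 by edgeR, all lower, beside the 4.49% of all genes tested given above). Among coagulation factors and thrombin receptors 6 of 18 were tested, 4 higher and 2 lower in anti-CD93, with a median log2 fold change of 0.19. F2r (PAR1), the chief thrombin receptor of endothelium, was at 90.9 ± 6.17 CPM in anti-CD93 and 72.4 ± 11.97 CPM in control IgG (log2 fold change 0.33, SE 0.19), and 0.17 without control IgG replicate 2. F2rl3 (PAR4), another thrombin receptor, was at 5.02 ± 0.0105 CPM in anti-CD93 and 9.64 ± 3.02 CPM in control IgG (log2 fold change -0.93, SE 0.34), and -0.58 without control IgG replicate 2. F5, which encodes the cofactor factor V, was at 12.8 ± 0.156 CPM in anti-CD93 and 8.91 ± 2.68 CPM in control IgG (log2 fold change 0.53, SE 0.30, and 0.87 without control IgG replicate 2). F13a1 had a log2 fold change of -0.045 (SE 0.61) and changed sign without control IgG replicate 2, to 1.29. F2rl1 (PAR2) was second to F2r in level, at 18.8 ± 0.127 TPM in anti-CD93 and 18.4 ± 3.03 TPM in control IgG.

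The coagulation factor genes below the filter had few reads or none. F9, F12, F13b, Fga, Fgg and Kng1 had no read in any library. F10 had 16 and 9 reads in anti-CD93 and none in control IgG, below the filter, and was picked after its counts were seen.

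Of the anticoagulant list 11 of 13 were tested, 5 higher and 6 lower, with a median of -0.0069. Anxa5, which shields phospholipid from clotting factors, was its highest gene at 493 ± 16.1 TPM in anti-CD93 and 440.1 ± 11.4 TPM in control IgG (log2 fold change 0.17, SE 0.17, and 0.12 without control IgG replicate 2). Entpd1 (CD39), which breaks down platelet-activating ADP, followed at 208 ± 41.3 TPM in anti-CD93 and 232 ± 32.9 TPM in control IgG (log2 fold change -0.15, SE 0.20). Entpd1 was at -0.31 without control IgG replicate 2 and turned to 0.026 without control IgG replicate 1, as it did without anti-CD93 replicate 1. Gas6, a vitamin K-dependent ligand of TAM receptors, was at 24.5 ± 4.84 CPM in anti-CD93 and 35.4 ± 9.71 CPM in control IgG (log2 fold change -0.53, SE 0.26), and -0.22 without control IgG replicate 2. Serpind1 (heparin cofactor II) had a log2 fold change of 0.39 (SE 0.74) at under 3 CPM in every library and turned to -0.10 without control IgG replicate 2 and -0.38 without anti-CD93 replicate 2.

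Of the plasminogen list 9 of 13 were tested, 5 higher and 4 lower, with a median of 0.043. Its highest genes, Anxa2 and S100a10, encode the annexin A2 complex that binds plasminogen and Plat on endothelium. Anxa2 was at 488 ± 16.3 TPM in anti-CD93 and 507 ± 74.5 TPM in control IgG (log2 fold change -0.045, SE 0.17, turning to 0.085 without control IgG replicate 2). S100a10 was at 330.3 ± 5.68 TPM in anti-CD93 and 319 ± 23.0 TPM in control IgG (log2 fold change 0.060, SE 0.17, and 0.11 without control IgG replicate 2). Serpine2, an inhibitor of thrombin and urokinase, had a log2 fold change of 0.20 (SE 0.19), and 0.18 without control IgG replicate 2. A2m (-0.79, SE 0.54) and Serpini1 (-0.22, SE 0.64) were under 4 CPM in every library, and without control IgG replicate 2 they were at -0.22 and -0.55. Without control IgG replicate 1 Serpini1 turned to 0.27. Plasminogen itself (Plg) had no read in 3 libraries and 16 in control IgG replicate 2.

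Of the list on storage, secretion and clearance of Vwf 20 of 22 were tested, 7 higher and 13 lower, with a median of -0.097, which became 0.031 without control IgG replicate 2. Selp (P-selectin), which shares the Weibel-Palade storage bodies with Vwf, was at 79.0 ± 20.5 CPM in anti-CD93 and 137 ± 51.3 CPM in control IgG. Its log2 fold change was -0.79 (SE 0.29), and -0.35 without control IgG replicate 2. Angpt2, another protein of these bodies, was at 267 and 294 CPM in anti-CD93, against 261 and 275 CPM in control IgG (log2 fold change 0.068, SE 0.17, 0.10 without control IgG replicate 2 and -0.0021 without anti-CD93 replicate 2). Rab3b, a vesicle GTPase, had 18 and 12 reads in anti-CD93 and 28 and 42 in control IgG (log2 fold change -1.82, SE 0.57, and -1.26 without control IgG replicate 2). Lman1, which carries factors V and VIII out of the endoplasmic reticulum, and the membrane fusion gene Stx3 had log2 fold changes of 0.19 (SE 0.17) and 0.33 (SE 0.22), which were 0.19 and 0.27 without control IgG replicate 2. Without control IgG replicate 1, 7 of the 46 genes of the 4 lists were called, against the 26.8% of all genes tested given above.

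**Figure D5:**
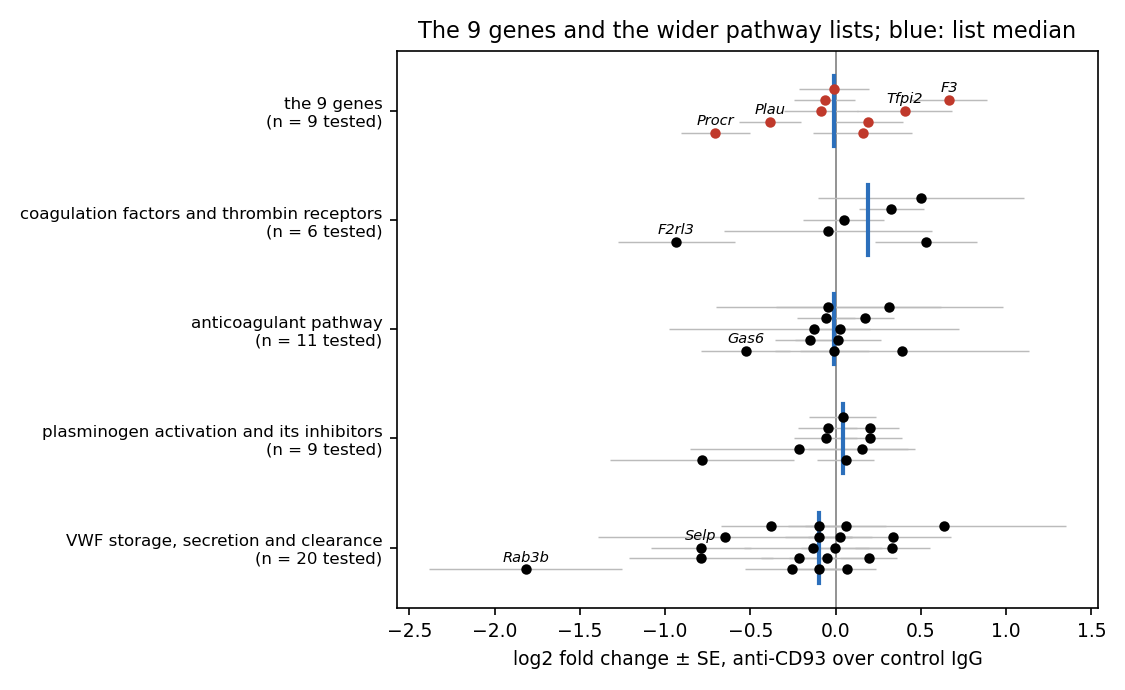
Log2 fold changes ± SE (horizontal axis, anti-CD93 over control IgG) of the 9 genes (red) and of the tested genes of 4 pathway lists (black), with the list medians in blue. The medians lie between -0.097 and 0.19, and Rab3b and F2rl3 lie farthest to the left of 0.

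Across the 4 libraries, the gene of the 9 or of the lists with the pattern most like each of the 9 was found by the Euclidean distance of centred log2 CPM, among 54 candidates. Plat was closest to Thbd (distance 0.066) and Plaur to Proc (0.14). Vwf and F8 were both closest to Lrp1 (0.15 and 0.12). F3 was closest to F2r (0.42), Procr to F2rl3 (0.28), Plau to Cd63 (0.30) and Tfpi2 to F5 (0.20). F3 therefore had the least close neighbour of the 9. With 4 libraries such distances describe these libraries only.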

How the data were processed

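RNA was measured in 4 libraries, 2 anti-CD93 and 2 control IgG, made with a stranded low-input total RNA kit and read as pairs of 150 bases, per the labels' protocols. The authors deposited raw read counts per gene name, made with featureCounts 2.0.1 on GENCODE vM25 (GRCm38), per the file headers. The recorded command has no paired-end and no strand option, so mates were counted singly and antisense reads were not separated. Exons of the 9 genes overlapped those of 0 other genes in GENCODE vM21. STAR 2.7.5b and DESeq2 1.28.1 are named, per the submitters' processing notes. The other deposited table, whose name says normalized, holds these counts again (0 of 221468 cells differed). Gene length came from the deposited table.

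The low-count filter was filterByExpr (minimum count 10). Counts were scaled by TMM and tested with edgeR 4.0.16 (robust quasi-likelihood, group as the only term) in R 4.3.3, with Benjamini-Hochberg adjustment over all 16945 genes. A 95% interval is the fitted change with its SE. limma 3.58.1 and DESeq2 1.42.0 were alternatives, and the procedure was tested on simulated data. Depth and 2 libraries per group limit precision. Other scalings, filters, robust dispersion off, a replicate block, halved counts and each library left out were tried. The 9 genes and all lists were chosen with earlier results of these data known. Named were all 9 genes, Pecam1, Cdh5 and Ptprc, and from each pathway list the 2 genes per direction with the smallest p and at least 1 CPM and the 2 highest per length; Thbd was added as the partner of Procr, and 1 gene named by this rule is not reported here. Cd93, fixed as a further check, was at 1716 and 1514 CPM in anti-CD93 and 1529.7 and 1759 CPM in control IgG. Of 152 list entries 151 were found. Promoters were read from RefSeq (GRCm38.p6).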

Additional observations from a re-analysis of the deposited data

How the results depend on the processing

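Over all genes edgeR called 0, and other settings called 48 (no count filter), 5 (DESeq2 on all genes with reads), 4 (DESeq2 on the filtered genes), and 0 to 4549 with each library left out in turn. Of the 9 genes, 0 to 3 were called with a library left out, and of the pathway lists 0 to 7, the upper values without control IgG replicate 1. All other settings, an adjusted p under 0.1 included, called 0 of both. Plaur, at -0.011, was 0.040 with no count filter and 0.0043 with DESeq2 on all genes with reads. With each library left out in turn the log2 fold changes ran from -0.32 to 0.19 for Vwf, -0.043 to 0.38 for F8, -0.020 to 0.43 for Tfpi, -0.19 to 0.060 for Plat and -0.23 to 0.18 for Plaur; the cause was not tested. F3, Tfpi2, Procr and Plau kept their direction in all 15 alternatives. Their values ran from 0.46 to 0.91, 0.20 to 0.64, -0.87 to -0.52 and -0.51 to -0.26. The groups did not overlap in these genes, as in 39.8% of all genes tested. Leaving out a library could therefore hardly turn their direction. The replicate numbers gave no sign of pairing: deviations of same-numbered libraries correlated at r = -0.016 over genes. With the replicate block 14 genes were called, 0 of them among the 9. F8 and Tfpi2 had the fewest reads of the 9, 98 to 225 a library. With the counts halved their SE were 0.29 and 0.28, as with all counts. Halving divides each count and adds no sampling noise, so it cannot show whether read depth limits precision.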
